A study of Mus musculus with 24 samples.

Results

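The comparison described here asks whether thymocytes that lack the transcription factor Elk-1 respond differently to a T cell receptor signal. It uses all 24 arrays of the series, read as 12 mice with 2 arrays each. The 6 mice lacking Elk-1 were 3 Elk KO mice (ElkKO) and 3 Elk/Sap KO mice (ElkSapKO), which carry both knockouts. The 6 mice having Elk-1 were 3 wild-type mice (WT) and 3 Sap KO mice (SapKO), so the absence of Sap-1 is balanced between the 2 sides. Sap was read as SAP-1, the product of Elk4, and Elk as Elk-1. All were male mice of the Black 6J strain aged 8 weeks. From each thymus the double-positive (DP) cells were sorted with antibodies to CD4 and CD8, rested, and spun onto plates coated with anti-CD3 or onto uncoated plates for 30 min. Anti-CD3 binds the CD3 chains of the T cell receptor complex and sets off its signal. For each probe set, the log2 change of a mouse is its signal after anti-CD3 minus its untreated signal, both on the deposited log2 scale. The response difference is the mean change of the 6 mice lacking Elk-1 minus that of the 6 mice having it.

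Elk-1, SAP-1 and Net (Elk3) are the ternary complex factors, ETS-family proteins that sit on DNA beside serum response factor (Srf) and are phosphorylated by ERK kinases. Srf binds an A and T rich sequence called the CArG box, and the ternary complex factor contacts an Ets core next to it. Their best known targets are immediate early genes such as Egr1, Fos and Ier2, which need no new protein synthesis to be transcribed. In DP thymocytes the ERK pathway and its target Egr genes take part in positive selection, the step in which cells with a useful receptor survive and mature.

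The labelled genotypes were first set against the arrays. The brightest Elk4 probe set read 6.13 to 7.85 log2 units in the 6 Sap-lacking mice and 10.25 to 10.99 in the 6 mice with Sap, over both states, so the Sap labels and the arrays matched. Elk1 lies on chromosome X and was dim on these arrays, and the sources used here do not give which part of it is deleted. Its brightest probe set read 4.03, 4.50 and 4.74 (lowest, median and highest) in untreated cells lacking Elk-1, against 4.70, 4.97 and 5.23 in those having it. This difference of −0.54 missed limma's threshold (adjusted p = 0.0714), and that after anti-CD3 was −0.30 (adjusted p = 0.0526). A second Elk1 probe set was lower by 0.59 after anti-CD3 (adjusted p = 0.00985) and differed by −0.49 untreated (adjusted p = 0.0811), and the third, the dimmest, differed by 0.13 and 0.069. Of the genes on either side of Elk1, Cfp was lower without Elk-1 on its brighter probe set by 1.11 after anti-CD3 and 1.21 untreated (adjusted p = 0.000712 and 0.00122) and differed on its dimmer one by −0.45 and −0.14 (adjusted p = 0.0124 and 0.815). Uxt, on the other side, differed by 0.038 and 0.026 (adjusted p = 0.862 and 0.944).

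The arrays held the markers of DP thymocytes. Over the 24 arrays Cd4 averaged 11.23 log2 units, Cd8a 12.66, Cd8b1 12.78, Rag1 12.76 and Cd3e 10.95, while Cd79a of B cells averaged 4.86, Lyz2 of macrophages 5.20 and Itgam of myeloid cells 3.49. Of the other cell types' lists, 8 of 10 B cell, 14 of 20 macrophage and dendritic cell, 9 of 9 granulocyte, 5 of 5 erythroid and 16 of 19 epithelial and stromal markers averaged below 6. Of the T lineage lists, 12 of 18 mature and innate T cell and 9 of 14 double-negative thymocyte markers did. Most probe sets were dim, since only 18182 of 45037 reached a mean of 6 in any genotype and state. These counts alone therefore do not measure purity. Arrays measure bulk RNA, so fewer cells of a type and less RNA per cell cannot be told apart. Some technical values moved with Elk-1 status. The Actb signal at the 3′ end minus that at the 5′ end, a measure of RNA integrity and labelling, was 0.43 to 0.93 in the 6 mice lacking Elk-1 and 0.18 to 0.27 in the 6 having it (exact two-sided permutation p = 0.00216, the smallest that 6 against 6 allow, and 0.0173 after Benjamini-Hochberg adjustment over 8 values). The same measure for Gapdh overlapped, at −0.085 to 0.30 without Elk-1 and −0.18 to 0.083 with it. Its difference of 0.116 did not pass (exact permutation p = 0.119, adjusted p = 0.317). The dap spike-in, a bacterial RNA added before labelling, averaged 9.10 to 9.59 without Elk-1 and 6.28 to 9.13 with it (exact permutation p = 0.00649, adjusted p = 0.026), with WT 3 and SapKO 2 the only mice of that side above 8. The changes of the Actb and dap values between the states differed by 0.014 (exact permutation p = 0.799) and 0.0062 (exact permutation p = 0.976), and neither difference passed. ElkSapKO 2 stood apart, because its untreated array spread wider around the other arrays (interquartile range 0.783, against at most 0.383 elsewhere), and its median absolute change was 0.411, against 0.12 to 0.23 in the other 11 mice. The 2 arrays of ElkSapKO 2 also correlated with each other at only 0.118, the lowest of all mice, and were not best with their own number. ElkKO 1 and 2 are a pair in doubt, since each untreated array correlated better with the other's stimulated array.

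Across the array, no probe set was called for a different response by Elk-1 status. limma called 0 of 45037 probe sets at an adjusted p under 0.05 (0% called), and the smallest adjusted p was 0.923. At an unadjusted p under 0.05 there were 879 probe sets with a larger and 666 with a smaller change without Elk-1, 1545 in all (3.43%). The median difference was 0.012 with quartiles of −0.10 and 0.12, and 98.8% of probe sets lay within 0.5 log2 units of equal change. The only difference beyond 1 log2 unit was that of Fosb. The per-mouse changes of the 2 sides did not overlap for 99 probe sets (0.22%), 56 of them with the mice lacking Elk-1 higher (0.124%) and 43 with them lower (0.0955%). The median half-width of a probe set's 95% confidence interval was 0.32, with no adjustment for the number of probe sets. For a typical probe set a difference smaller than that was not detectable. The adjusted threshold is stricter than this interval, so differences well beyond 0.32 could also miss it. Neither the Fosb difference of −1.20 nor the probe set of smallest unadjusted p (limma, 0.000143) passed. By contrast, the response itself, averaged over the 12 mice, was called for 1082 probe sets (2.4%), 647 that rose (1.44%) and 435 that fell (0.966%), with 5025 at an unadjusted p under 0.05 (11.2%).

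**Figure D1:**
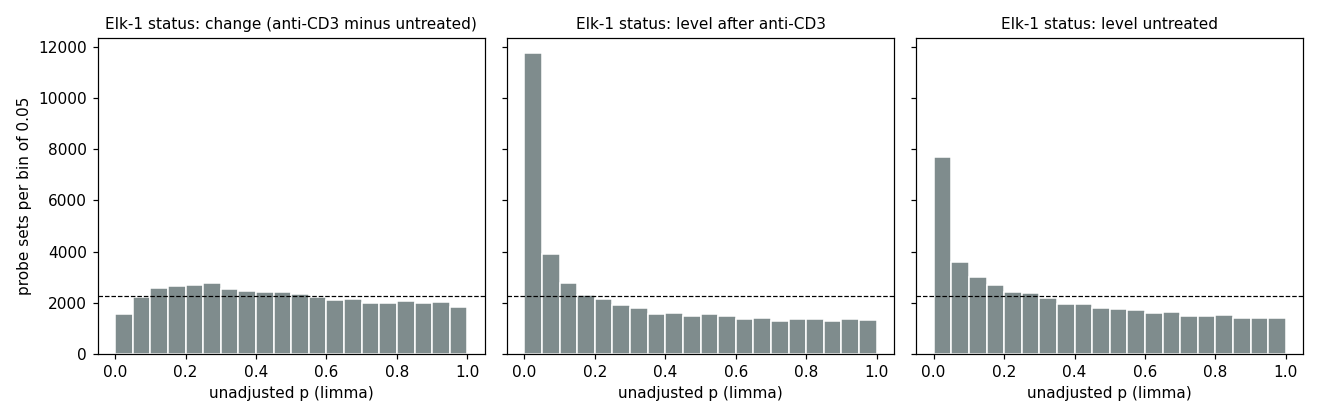
Number of probe sets (y axis) in bins of 0.05 of the unadjusted limma p (x axis) for the difference by Elk-1 status in the change, in the level after anti-CD3 and in the untreated level, with a dashed line at an even spread. The left panel falls below the line at its smallest p values, where 1545 of 45037 probe sets lie under 0.05, whereas 11776 do so for the stimulated level and 7718 for the untreated level.

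**Figure D2:**
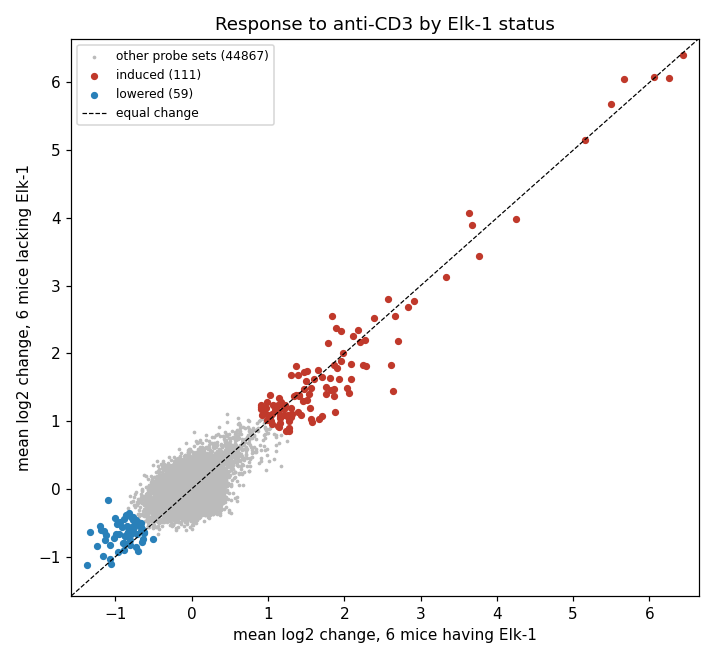
Mean log2 change of each probe set in the 6 mice lacking Elk-1 (y axis) against that in the 6 having it (x axis), with the 111 induced and 59 lowered probe sets coloured and a dashed line of equal change. The points lie along the line up to the Egr genes at about 6 log2 units.

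Egr genes encode zinc finger factors that carry the ERK signal on to later genes, and Egr1 and Egr2 rose in all 12 mice. The log2 change of Egr1 was 5.71, 6.30 and 7.34 (lowest, median and highest) in the 6 mice lacking Elk-1, against 5.85, 6.34 and 7.08 in the 6 having it. The sides overlapped throughout, and the difference was −0.036 with a 95% interval of −0.56 to 0.49. Egr2 changed by 4.57, 5.87 and 7.58 without Elk-1 and by 4.89, 6.13 and 7.75 with it, a difference of −0.19 (−0.88 to 0.50). Its second induced probe set changed by 4.73, 6.30 and 6.95 without Elk-1 and by 4.30, 5.66 and 6.67 with it, a difference of the other sign, 0.38 (−0.12 to 0.87). Egr3 was read by a pair of probe sets: the responsive one rose by 6.07 on average and differed by 0.027 (−0.53 to 0.58), while the brighter one, which rose by 0.49, differed by −0.31 (−0.70 to 0.071) and fell by 0.51 in ElkSapKO 2. Egr4, whose average change of 0.20 was not called (adjusted p = 0.478), differed by −0.29 (−0.72 to 0.13).

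The Fos and Jun genes encode the subunits of the AP-1 factor, and among them Fosb had the largest response difference of any probe set. Its log2 changes were 0.15, 2.63 and 2.39 in ElkKO mice and 0.82, 0.71 and 1.92 in ElkSapKO mice, against 1.89, 3.40 and 3.73 in WT mice and 2.16, 2.08 and 2.58 in SapKO mice. The lowest 3 of the 12 values came from mice lacking Elk-1, but ElkKO 2, ElkKO 3 and ElkSapKO 3 lay among the mice having it, so the sides overlapped. The difference was −1.20 (−2.15 to −0.26; limma's unadjusted p = 0.0164, adjusted p = 0.923), and it was −0.81 without ElkKO 1. Fosb was also dim, at 4.997 log2 units over the 24 arrays. Fos, the founding member, changed by 1.96, 3.92 and 6.13 without Elk-1 and 3.50, 4.26 and 4.82 with it, a difference of −0.26 (−1.43 to 0.90). The Fos values were the more widely spread on the side lacking Elk-1. The lowest change was that of ElkKO 1, whose untreated Fos signal was 9.055, against 5.38 to 7.37 in the other mice. Its stimulated Fos signal was 11.02, beside 10.85 to 11.2 in WT mice. The untreated array of ElkKO 1 also had the highest Egr1 (7.55) and Cd69 (6.98) signals, but not the highest of Egr2 or Nr4a1. Junb changed by 1.60, 2.12 and 3.11 without Elk-1 and 1.89, 2.299 and 2.57 with it (difference −0.072). Fosl2, another Fos-family subunit, changed by 0.54, 1.15 and 1.41 without Elk-1 and by 0.98, 1.62 and 2.27 with it (difference −0.63, unadjusted p = 0.019, adjusted p = 0.923), with overlap.

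**Figure D3:**
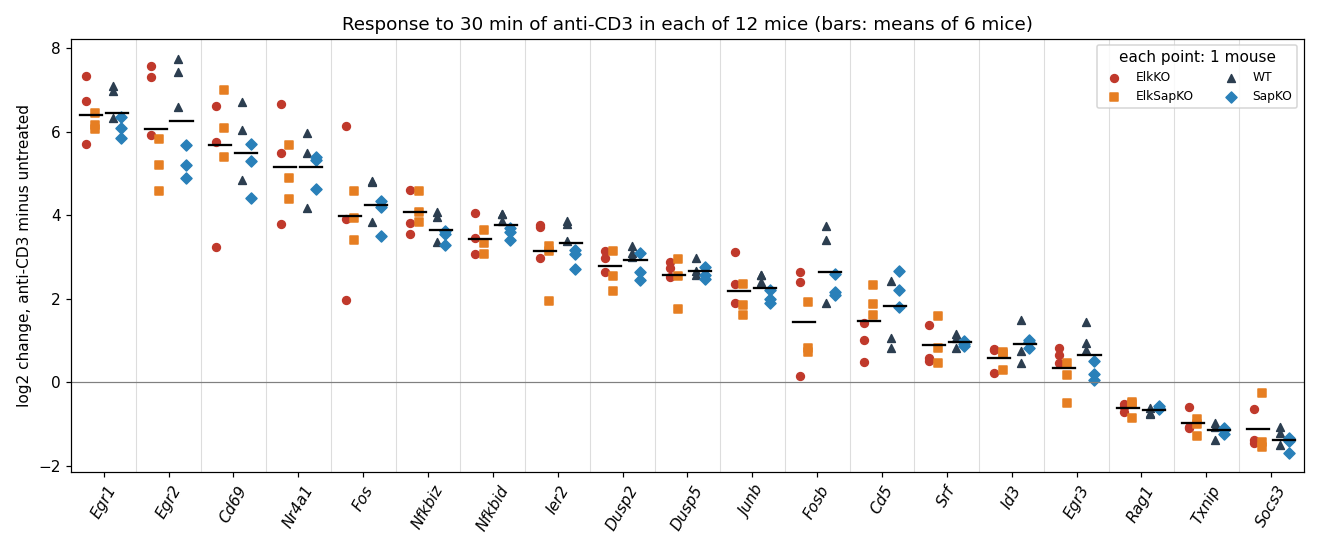
Log2 change after 30 min of anti-CD3 (y axis) in each of 12 mice for named responding genes (x axis), with ElkKO and ElkSapKO mice left of WT and SapKO mice within each gene and black bars for the means of 6 mice. The bars of the 2 sides lie close together in most genes, and Fosb shows the widest gap, with 3 mice lacking Elk-1 below all others.

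Other early genes showed the same overlap. Ier2, a nuclear regulator that is a standard Srf target, changed by 1.93, 3.20 and 3.77 in mice lacking Elk-1 and by 2.72, 3.26 and 3.87 in mice having it (difference −0.20, −0.71 to 0.30). Nr4a1, the orphan nuclear receptor Nur77 that reports receptor signal strength, changed by 3.78, 5.19 and 6.66 without Elk-1 and by 4.18, 5.35 and 5.96 with it (difference −0.012, −0.98 to 0.96). The spread between mice was wide here, and the unadjusted interval for Nr4a1 took in differences of up to about 1 log2 unit either way. Its relative Nr4a3 differed by −0.74 (−1.41 to −0.071). Nr4a2 differed by −0.80 (−1.62 to 0.033) on its most responsive probe set. On less responsive ones it differed by −0.41 (−1.035 to 0.21) and −0.46 (−1.03 to 0.11). Cd69, an activation antigen that holds cells in the thymus, changed by 3.23, 5.92 and 7.01 without Elk-1 and by 4.42, 5.50 and 6.71 with it, a difference of 0.18 (−0.97 to 1.33). That value turned to −0.17 without ElkKO 2 and grew to 0.67 without ElkKO 1. Cd5, a damper of receptor signalling, changed by 0.48, 1.52 and 2.33 without Elk-1 and by 0.82, 2.00 and 2.66 with it (difference −0.37, −0.97 to 0.23). Srf itself changed by 0.45, 0.69 and 1.59 without Elk-1 and by 0.82, 0.96 and 1.15 with it (difference −0.084, −0.52 to 0.35).

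Phosphatases and inhibitors that feed back on the signal also responded on both sides. Dusp2, a phosphatase of ERK, changed by 2.18, 2.81 and 3.14 in mice lacking Elk-1 and by 2.44, 3.04 and 3.26 in mice having it (difference −0.15). Dusp5, a nuclear ERK phosphatase, changed by 1.75, 2.63 and 2.95 without Elk-1 and 2.47, 2.62 and 2.97 with it (difference −0.11, −0.50 to 0.28). Nfkbid and Nfkbiz encode nuclear IκB proteins, which bind NF-κB on DNA. Nfkbid changed by 3.06, 3.40 and 4.06 without Elk-1 and by 3.40, 3.77 and 4.04 with it (difference −0.33, −0.68 to 0.025). Nfkbiz on its most responsive probe set changed by 3.55, 3.95 and 4.61 without Elk-1 and by 3.29, 3.59 and 4.07 with it (difference 0.44, −0.0024 to 0.88). The other induced Nfkbiz probe sets differed by 0.23 (−0.43 to 0.89) and −0.51 (−1.09 to 0.063), so the sign depended on the probe set. None passed the test, and the sides overlapped for the Nfkbid values and the Nfkbiz values given. Of the genes that did not rise much or that fell, Mcl1, which protects from cell death, differed by 0.0075, Id3, an inhibitor of E proteins downstream of Egr, by −0.33, Rag1, the recombinase subunit, by 0.045, Socs3, a cytokine signalling inhibitor, by 0.26 and Txnip, an inhibitor of thioredoxin, by 0.17.

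The promoters of responding genes were searched for the sequences at which a ternary complex can form. Sequences were RefSeq's, assembly GRCm38.p6, and the CArG box was searched on both strands in the 250 bases before each annotated start. It was found in 439 of 27025 genes (1.62%), and in 215 (0.796%) with an Ets core (GGAA, or TTCC on the other strand) within 30 bases. The Ets core alone was in 94.2% of genes. Of the 64 genes induced at least 2-fold, 45 had a window and 3 held a CArG box (6.67%), namely Dusp5, Egr2 and Zfp36, each with an Ets core near; of the 32 lowered genes, 25 had a window and 0 held one. The Egr2 match stood before a start other than the most upstream one. Induced genes not named here, Egr1 among them, had either no match or no window to search, which the counts do not tell apart. The 2 windows below carry the match in capitals and lower-case letters elsewhere. Dusp5 lies at chr19:53529029-53529116 on the + strand with 2 adjoining CArG boxes, 72 and 62 bases before the start, and Zfp36 at chr7:28379243-28379320 on the − strand with 1, 48 bases before the start.
Dusp5: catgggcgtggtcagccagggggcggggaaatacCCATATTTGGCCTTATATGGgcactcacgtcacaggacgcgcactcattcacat
Zfp36: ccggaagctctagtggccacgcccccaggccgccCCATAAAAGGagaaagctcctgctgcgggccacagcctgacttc
Zfp36 encodes tristetraprolin, which promotes decay of short-lived mRNAs. It rose by 2.19 on average, and its response difference was −0.029 (−0.29 to 0.23), which did not pass the test. Dusp5, with 2 boxes, had the difference of −0.11 given above.

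The probe sets of smallest p did not pass the adjusted threshold and are given as values. On the higher side stood 1 probe set of Trip4, a transcriptional coactivator subunit, with changes of −0.15, 0.13 and 0.90 in mice lacking Elk-1 against −0.85, −0.65 and −0.34 in those having it. The sides did not overlap, and the difference was 0.79 (0.47 to 1.10; unadjusted p = 0.000143, adjusted p = 0.923). The other Trip4 probe sets gave 0.41, 0.26 and 0.10. Cd164, a sialomucin, differed by 0.74 on one probe set and by 0.13 on the other. The remaining 8 on that side were Phka1, Abcg8, Glyctk, Ap3s2, Celf2, Hmga2, Cd302 and Kdm5a, with differences of 0.40 to 0.59. These probe sets were dim, at 3.18 to 5.60 log2 units on average, and only Cd164 had a called average response.

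On the lower side Ifng, the cytokine interferon gamma, had the smallest p. Its log2 changes were −0.18, 0.063 and 0.40 in mice lacking Elk-1 and 0.35, 0.72 and 0.91 in mice having it. Only ElkKO 2 on one side and WT 1 on the other overlapped. The difference was −0.61 (−0.88 to −0.34; unadjusted p = 0.000342, adjusted p = 0.923), at a mean signal of 3.58, and it ranged from −0.71 to −0.56 when any 1 mouse was left out. Myl6, a myosin light chain, changed by −0.047, 0.44 and 0.59 without Elk-1 and 0.68, 0.84 and 1.11 with it, with no overlap and a difference of −0.50. Tnrc18 changed by 0.48, 0.71 and 0.73 without Elk-1 and 0.75, 1.14 and 1.56 with it, also without overlap (difference −0.47). Itprip, a regulator of calcium release, differed by −0.53 on one probe set but by −0.077 on the other. The rest were Dnajb12 and Dnajb5, which are co-chaperones, Unc119, Sp3os, Zfp142 and Hydin, with differences of −0.63 to −0.42.

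The probe sets chosen by the average response alone show the size of the whole program. Induced probe sets, 111 of 64 named genes and some unnamed, were those called with a mean change of at least 1 log2 unit (2-fold). Their median change per mouse was 1.00, 1.45 and 1.69 in mice lacking Elk-1 and 1.25, 1.60 and 1.87 in mice having it, with means of 1.42 ± 0.23 and 1.59 ± 0.23 (SD, n = 6 each). The difference was −0.17 and was not tested, and the SDs are those of single mice. It ran from −0.24 without WT 1 to −0.0605 without ElkKO 1, with the induced probe sets chosen anew each time. Of the 111 probe sets 47 had a larger and 64 a smaller change without Elk-1, and 0 were called. At an unadjusted p under 0.05, 2 were higher and 7 lower (8.11%, beside 3.43% of all probe sets). The named ones that were lower were Fosb, Fosl2, Itprip, Nr4a3, Trib1, a pseudokinase (−0.64), Ccl4, a chemokine (−0.50), and Orai1, the calcium channel pore (−0.59). Of the 2 higher ones, Slc16a10, an amino acid transporter, was named (0.39).

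Lowered probe sets, 59 of 32 named genes, were those called with a mean change of −0.58 or less. They fell by a median of 0.95, 0.69 and 0.26 in mice lacking Elk-1, against 1.02, 0.81 and 0.73 in mice having it. The means were −0.645 ± 0.25 and −0.83 ± 0.099 (SD, n = 6 each), a difference of 0.19. ElkSapKO 2 had the smallest fall. Where mice were left out, the lowered probe sets were chosen anew from the mice kept and need not be the same 59. The difference was then 0.0993 without ElkSapKO 2, and 0.0251 without ElkKO 1 and 2 and ElkSapKO 2 together. Among the mice with a high dap signal it was 0.416. Of the 59 probe sets 49 had a positive difference and 10 a negative one, beside 23750 positive and 21287 negative of all 45037. At an unadjusted p under 0.05, 8 were higher and 1 lower (15.3%), and 0 were called. The named ones among the higher were Gtf2h4, a TFIIH subunit (0.66), Peli1, a ubiquitin ligase (0.58), Aqp11, a water channel (0.54), Bcl2l1, an inhibitor of cell death (0.46), Txnip on its second probe set (0.40) and Pik3ip1, an inhibitor of PI3 kinase (0.27).

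Gene lists from general knowledge were read by 1 probe set per gene, the brightest, and described by counts. Over all 18193 genes the response difference was negative for 9230 and positive for 8963, with a median of −0.00364, and 0 were called (0%), with 228 higher and 305 lower at an unadjusted p under 0.05 (2.93%). None of the 27 lists had a called member. Of 26 TCF-SRF immediate early genes 21 had a negative difference (median −0.133), and 2, Fosb and Fosl2, were lower at an unadjusted p under 0.05. The mean of that list's median change was 0.77 ± 0.26 without Elk-1 and 0.949 ± 0.11 with it (SD, n = 6 each), which overlap. The Egr, Nab and Id axis had 10 of 12 members negative (median −0.255), with Id1, an inhibitor of E proteins (−0.43), and Nab2, a corepressor of Egr proteins (−0.64), lower at an unadjusted p under 0.05. The Nab2 value leaned on 1 mouse of each side. ElkSapKO 2 changed by −0.95, against 0.56 to 0.86 in the others lacking Elk-1. WT 2 changed by 1.97, against 0.79 to 1.03 in the others having it. AP-1 and small Maf factors were negative in 12 of 14 (median −0.206), and Nr4a and negative selection genes in 14 of 15 (median −0.205), where Nr4a3, Trib1 and Xcl1, a chemokine (−0.35), were lower at an unadjusted p under 0.05.

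Other signalling lists gave smaller medians. NF-kB targets were negative in 12 of 19 (median −0.127), and 4 of them were lower at an unadjusted p under 0.05, among them the chemokines Ccl3 (−0.59) and Ccl4 and the cytokine Tnf (−0.49). MRTF-SRF cytoskeletal genes, the Srf targets that use another cofactor, were negative in 16 of 22 (median −0.098), with 0 at an unadjusted p under 0.05. ERK feedback regulators had 9 of 20 negative (median 0.0121), NFAT and calcium targets 9 of 18 (median 0.0148), T cell receptor signalling components 13 of 24 (median −0.0554) and mRNA decay factors 3 of 11 (median 0.0883). DP thymocyte genes had 7 of 20 negative (median 0.0395) and the MAP kinase cascade 7 of 14 (median 0.0019). The remaining lists, cell type markers included, had medians from −0.121 (granulocyte markers) to 0.289 (3 sex-linked genes). Lists share members: Fosb and Fosl2 stand in the first and the AP-1 list, and Egr1, Egr2 and Egr3 in several. The Egr, Nab and Id median was −0.0893 when each gene was the mean of its probe sets, a smaller value.

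**Figure D4:**
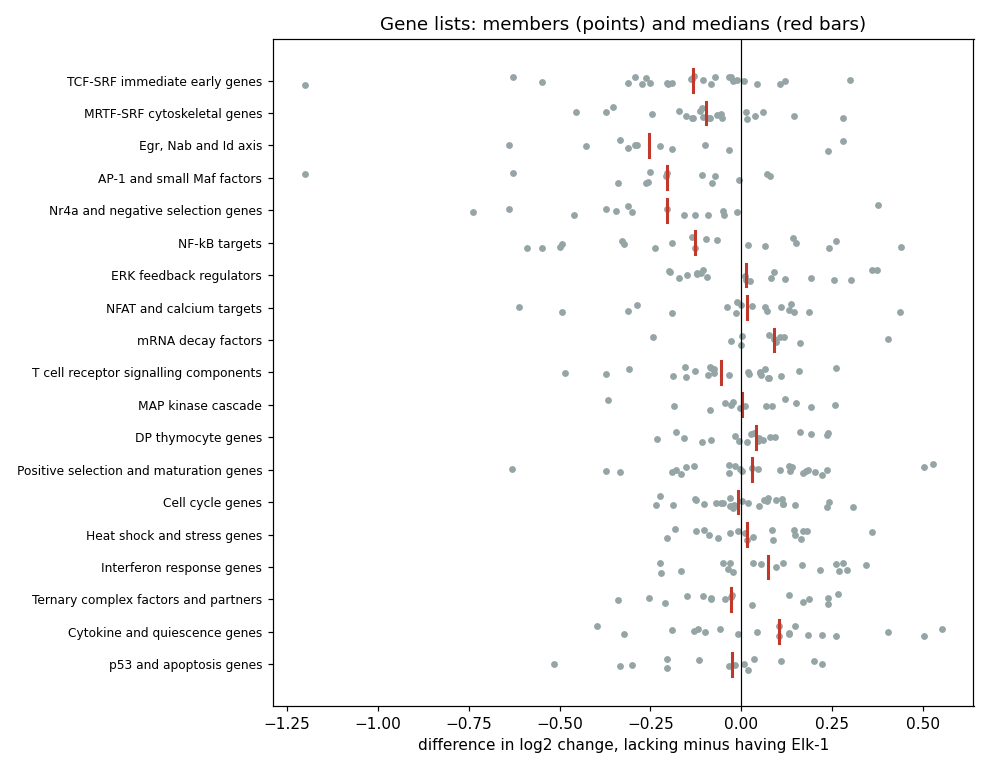
Response difference by Elk-1 status, lacking minus having, in log2 units (x axis) for each measured member (points) of the signalling and cell state lists (rows), with red bars at the list medians. Medians lie between about −0.26 and 0.10, and the point farthest left is Fosb.

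The difference was also taken where Sap-1 is present and where it is absent. ElkKO minus WT gave 0 called probe sets and 1075 at an unadjusted p under 0.05 (2.39%), and ElkSapKO minus SapKO gave 0 called and 1522 (3.38%). The test of the difference between these effects called 0 as well, with 987 at an unadjusted p under 0.05 (2.19%). Fosb differed by −1.28 with Sap-1 and −1.12 without it. Cd69 leaned opposite ways, −0.66 with Sap-1 and 1.02 without it, but limma's test of this contrast did not pass (unadjusted p = 0.137). Smallest p in that test had Cd84, an adhesion receptor of the SLAM family (1.00 with Sap-1 and −0.15 without), Lpp (0.81 and −0.42) and Phf2, a histone demethylase (0.57 and −0.60). ElkSapKO 2 is 1 of the 3 mice behind each value without Sap-1.

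Exchanging the numbers of ElkKO 1 and 2 between their arrays left every group mean as it was and changed only the spread. It gave 0 called probe sets, 1693 at an unadjusted p under 0.05 (3.76%), and a smallest adjusted p of 0.901. The median standard error was 0.143 exchanged and 0.146 as labelled. For Fosb the 2 ElkKO changes became 1.59 and 1.18 in place of 0.15 and 2.63, and its unadjusted p was 0.00309 with an interval of −1.92 to −0.49 (adjusted p = 0.901). Ifng had an unadjusted p of 7.65e-05 under the exchange.

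Levels, unlike changes, differed by Elk-1 status. In untreated cells limma called 1393 probe sets (3.09%), 234 higher (0.52%) and 1159 lower (2.57%) without Elk-1, and after anti-CD3 it called 4679 (10.4%), 1711 higher (3.8%) and 2968 lower (6.59%). At an unadjusted p under 0.05 there were 7718 untreated (17.1%) and 11776 stimulated (26.1%). All 1393 had the same sign in both states, which come from the same mice. Probe sets called lower in both numbered 885 (76.4% of the untreated and 29.8% of the stimulated list), and those called higher in both 156 (66.7% and 9.12%). These counts moved with single mice and with the spike-in. Leaving out 1 mouse gave 300 (without SapKO 1) to 5346 (without ElkSapKO 2) untreated, and 1916 (without SapKO 1) to 6558 (without ElkSapKO 3) stimulated. Among the 8 mice with a high dap signal there were 0 untreated and 11 stimulated calls (3 higher and 8 lower), in a comparison with only 2 mice having Elk-1. The share of the Actb and dap differences in these levels was not tested.

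Among probe sets picked after their values were seen, those of 3 genes kept a stimulated call in the mice with a high dap signal. They were picked for large level differences called in both states, so a separation of the sides follows largely from that choice. The high-dap mice are part of the same mice and give no independent support. The dimmest of 3 probe sets of Rps6ka3, the ERK-activated kinase RSK2, read 4.10, 4.39 and 4.94 log2 units after anti-CD3 without Elk-1 and 5.41, 6.53 and 6.79 with it. Untreated it read 4.28, 4.67 and 4.78 without Elk-1 against 6.14, 6.56 and 6.88 with it, so the sides did not overlap in either state. The differences were −1.93 stimulated and −1.96 untreated (adjusted p = 0.000218 and 6.87e-05), and −1.55 stimulated in the high-dap mice (adjusted p = 0.0286). The brightest Rps6ka3 probe set differed by −0.013 stimulated and −0.16 untreated (adjusted p = 0.958 and 0.634) and the middle one by −0.32 and −0.55 (adjusted p = 0.0445 and 0.0618). Nudt21 encodes a cleavage factor that sets polyadenylation sites, and 1 of its 4 probe sets read 8.53, 8.74 and 9.06 after anti-CD3 without Elk-1, against 6.99, 7.28 and 7.57 with it. Untreated values were 8.48, 8.90 and 8.98 without Elk-1 and 7.36, 7.74 and 7.98 with it, again without overlap. Its differences were 1.45 and 1.11 (adjusted p = 4.74e-05 and 0.00135), and 1.51 stimulated in the high-dap mice (adjusted p = 0.0291). A second Nudt21 probe set was also called higher, by 1.28 stimulated and 1.04 untreated, while the other two, at 0.14 and −0.16 stimulated and 0.080 and −0.29 untreated, were not called. Mid1, a ubiquitin ligase on chromosome X, was higher by 1.64 stimulated (adjusted p = 0.00203), but its ElkKO mice read 8.62, 8.03 and 8.58 and its ElkSapKO mice 6.15, 6.06 and 6.75, against 5.04 to 6.87 in mice having Elk-1. The other two Mid1 probe sets, at −0.13 and 0.091 stimulated, were not called. The response difference of the probe sets first given was 0.028 for Rps6ka3, 0.34 for Nudt21 and 0.074 for Mid1, none of which passed the test.

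**Figure D5:**
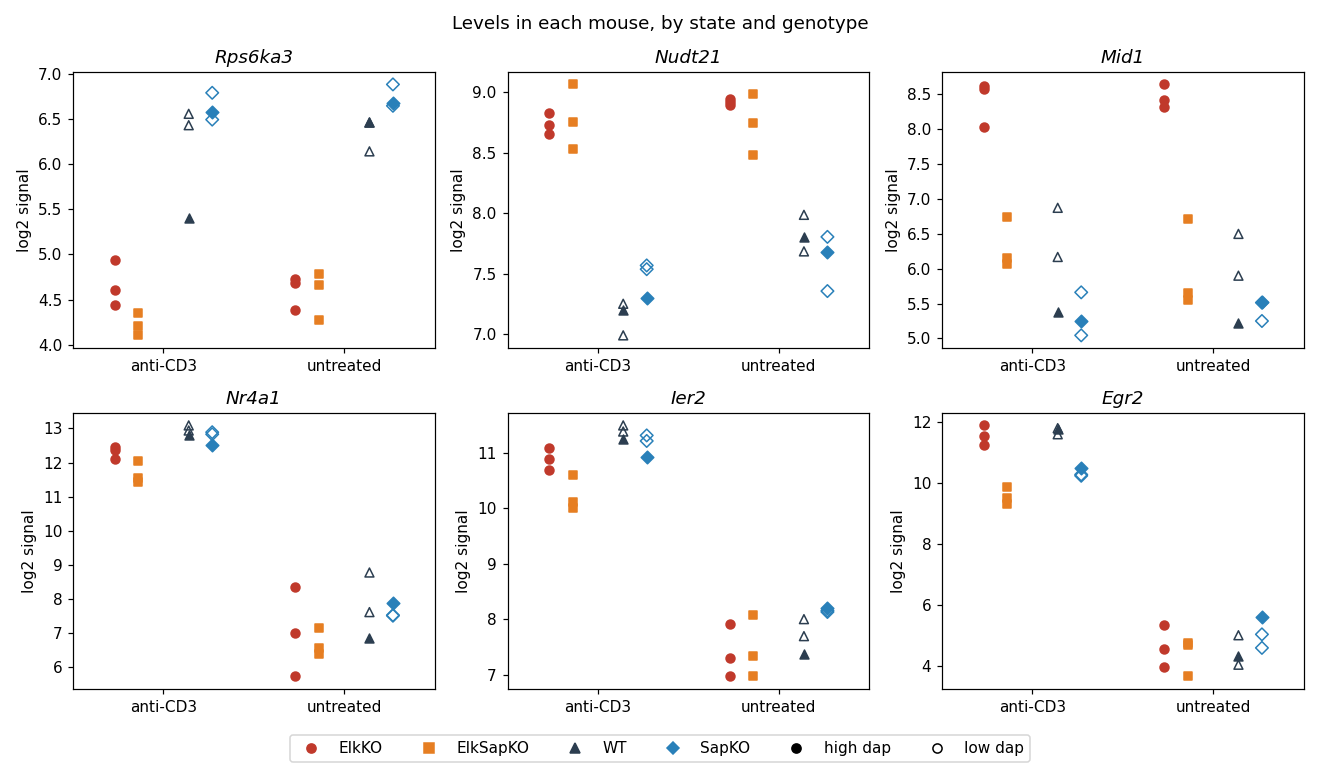
Log2 signal (y axis) after anti-CD3 and untreated (x axis) in each mouse for 6 genes, with ElkKO and ElkSapKO left of WT and SapKO within each state, filled symbols for mice with a high dap spike-in and open ones for low. The 1 probe set plotted for each of Rps6ka3 and Nudt21 separates the 6 mice lacking Elk-1 from the 6 having it in both states. Both were picked for their level differences. Of the preset group, Egr2 and Ier2 overlap in both states. Nr4a1, also preset, overlaps untreated but not after anti-CD3, where it reads up to 12.47 without Elk-1 and from 12.5 with it. The brightest Rps6ka3 probe set, not plotted, was not called in either state.

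Several early genes were called lower after anti-CD3 without Elk-1, while none of their changes passed the test. Nr4a1 read 11.43, 12.08 and 12.47 without Elk-1 and 12.50, 12.86 and 13.09 with it after anti-CD3, a difference of −0.85 (adjusted p = 0.00246). Its untreated difference was −0.84 (adjusted p = 0.327), and the response difference is the one minus the other. Ier2 was lower by 0.70 after anti-CD3 (adjusted p = 0.00476), Dusp5 by 0.61 (adjusted p = 0.00486), Cd5 by 0.72 (adjusted p = 0.00794) and Zfp36 by 0.50 (adjusted p = 0.0134), with untreated differences of −0.50, −0.50, −0.34 and −0.47 that did not pass. For Nr4a1, Ier2, Dusp5 and Cd5 the stimulated call held without each of the 12 mice in turn. Egr2 was lower by 0.46 (adjusted p = 0.0303), a call that held in 4 of 12 such fits and was not shared by its second probe set (−0.079, adjusted p = 0.793), and Fosb by 1.04 (adjusted p = 0.0204), a call lost without SapKO 1 or SapKO 3. Egr1 differed by −0.26 (adjusted p = 0.0878). None of these genes was called among the high-dap mice alone, where the differences were −0.66 for Nr4a1, −0.52 for Ier2, −0.59 for Dusp5, −0.40 for Cd5, −0.56 for Egr2 and −1.19 for Fosb. By list, after anti-CD3 9 of 26 TCF-SRF genes, 7 of 15 Nr4a and negative selection genes and 8 of 22 MRTF-SRF genes were called lower. This was not particular to early genes. Also lower were 9 of 24 T cell receptor signalling components, 5 of 14 MAP kinase cascade, 4 of 11 mRNA decay and 6 of 18 NFAT and calcium genes. Other lists had fewer, such as 4 of 20 DP thymocyte and 0 of 28 cell cycle genes. Over all genes 1310 of 18193 were called lower (7.2%, with 2.51% called higher). In untreated cells 0 of 26 TCF-SRF genes were called, where 311 of 18193 genes were lower (1.71%) and 70 higher (0.385%).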

How the data were processed

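The values were the deposited log2 signals of 45101 Mouse430_2 probe sets on 24 arrays, which the authors made by RMA with the affy package, per the submitters' processing notes. RMA subtracts background, brings all arrays to the same quantiles and summarises each set's probes. Package versions, like the build, were not given in the sources used here. Quantile normalization forces 1 distribution on all arrays, so a shift of all genes is not seen. Control probe sets (64) were left out. A single symbol was listed for 34945 of 45037 probe sets, several for 932 and none for 9160. Of 18193 genes, each read by its brightest single-symbol probe set, 18032 matched the GRCm38.p6 gene table, used for symbols, chromosomes and gene order. The number of arrays limits the precision.

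Each mouse's change was fitted with limma 3.58.1 in R 4.3.3 (lmFit and eBayes, a mean per genotype, 8 residual degrees of freedom). P-values were two-sided and adjusted by Benjamini-Hochberg within each of 5 contrasts, and called means an adjusted p under 0.05. Levels were fitted likewise on the 12 arrays of each state. Figures used matplotlib 3.10.9 in Python 3.11.15. Mouse numbers in the labels pair the 2 arrays of an animal. Over 16608 probe sets the 12 pairs' deviations from group means correlated at 0.118 to 0.847, and 9 of 12 were best with their own number. The p-values measure the spread between mice. Alternatives were other fits, filters, scalings, probe set rules and leaving mice out. The fits were also run on simulated data with planted differences and independent normal errors. That run checks the code only, since it holds no correlated probe sets and no mouse like ElkSapKO 2.

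Named genes are a preset group (such as Egr1, Fosb, Cd69 and Rag1), the 10 single-symbol probe sets of smallest p in each direction, up to 2 per gene list, and 3 of the test between the Elk-1 effects; clone-like symbols were not named. Members and lists were chosen with earlier results of these data known. Of 437 listed genes 406 were measured; the others were not analysed here.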

Additional observations from a re-analysis of the deposited data

Results flagged for a closer look

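In 36 of 270 groups of 6 values tested (13.3%), 1 mouse stood so far from the other 5 that its gap to the nearest passed Dixon's 95% critical value of 0.625, where chance alone gives about 1 in 20 groups. ElkSapKO 2 gave 17 of the 36 and WT 3 gave 8, and the groups share mice and are not independent.

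Among mice lacking Elk-1, the log2 change of ElkSapKO 2 stood above the others for Trip4 (0.9003), Kdm5a (0.6583), Elk3 (1.855), Elk4 (1.38), Mcl1 (0.6401), Tcf12 (0.8041), Ms4a1 (1.501), Dnajb4 (1.474) and Kdm5d (2.021). It stood below them for Myl6 (−0.04746), Dusp5 (1.749), Nab2 (−0.9457), Map2k2 (−1.504), Slc4a1 (−1.095) and Mrtfa (−0.8388). Its untreated array also had the widest spread around the other arrays (0.783) and the lowest untreated level of Nudt21 on its second called probe set (7.054). Other mice of that side stood low for Cd164 (ElkKO 3, −0.3279), Tnrc18 (ElkSapKO 1, 0.4848) and Bcl2l11 (ElkKO 1, −0.07996), and high for Oas1a (ElkSapKO 3, 0.7799).

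Among mice having Elk-1, the change of WT 3 stood low for Cd302 (−0.5541), Tcf12 (−0.3828) and Rrm1 (−0.6191), and high for Map2k2 (0.475) and Mrtfa (0.652). After anti-CD3 WT 3 also had the lowest levels of Rps6ka3 (5.409) and Cyth1 (6.625) and the largest Actb 3′ minus 5′ signal of its side (0.359). WT 2 stood high for Nab2 (1.972), and WT 1 low for Slc6a19 (−0.5205) and for the median change of the lowered probe sets (−1.02). The stimulated array of WT 1 had the widest spread of its side (0.383). SapKO 1 stood high for Ngp (0.2531) and for the untreated level of H2aj (5.856), and SapKO 2 low for the stimulated level of Bcat2 (8.265). Tcf12, Nab2, Map2k2 and Mrtfa had such a mouse on both sides.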

How the results depend on the processing

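The response difference by Elk-1 status had 0 called probe sets under each of the 23 alternatives run. Both Elk-1 effects and the difference between them had 0 under each of the 20 run for them, which leave out the 2 means, the high-dap mice and the 3 mice together. At an unadjusted p under 0.05 it had 859 with no replicate block (mouse left out of the fit), 1530 with 2 means only, 490 of 18182 without dim probe sets, 552 and 526 genes by brightest or mean probe set, 1628 after centring, 1255 with array weights, 1536 with a trend, 732 in high-dap mice and 833 without ElkKO 1 and 2 and ElkSapKO 2, an alternative chosen after seeing the data. Leaving out 1 mouse gave a smallest adjusted p of 0.161 to 1. With no replicate block, ElkKO minus WT had 619, ElkSapKO minus SapKO 886 and their difference 551 at an unadjusted p under 0.05, and with array weights 3950 (smallest adjusted p 0.408), 387 and 825. Of the 95 named probe sets none was called in any of 2134 recomputed values, and 20 changed sign in at least 1.

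The average response over 12 mice, 1082 calls, gave 654 with no replicate block, 353 with the brightest probe set and 433 with the mean probe set per gene, where fewer features are tested, and 700 to 2650 with 1 mouse left out. The untreated level by Elk-1 status, 1393 calls, gave 0 in high-dap mice, 220 by brightest probe set and 300 to 5346 with 1 mouse left out. The stimulated level by Elk-1 status, 4679 calls, gave 11, 1921 and 1916 to 6558. Both counts by brightest probe set and in high-dap mice were chosen after seeing the data, and the high-dap fit holds fewer samples.

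The lowered probe sets' difference was 0.416 in high-dap mice, with the lowered probe sets chosen anew in those mice. Of 619 recomputed list medians 8 moved beyond the spread. The Egr, Nab and Id axis moved to −0.0893 (mean probe set) and −0.104 (high dap). T cell receptor signalling components moved to 0.0106 (mean probe set) and granulocyte markers to 0.0842 (high dap). Epithelial and stromal markers moved to 0.17 (dim probe sets left out) and cytokine and quiescence genes to −0.0435 (without the 3 mice). The remaining moves came with 1 mouse left out, in interferon response genes and in ternary complex factors and partners. Over all such fits the former ranged from 0.0152 to 0.111 (main fit 0.0731). The latter ranged from −0.0698 to 0.0363 (main fit −0.0293), and most of these fits did not move. For these the cause was not tested. Dim probe sets, among them Elk1, Ifng and most of those of smallest p, lie near background, where changes are understated.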
